A study of Mus musculus with 6 samples.

Results

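The genes described here encode the integrins and the laminins, together with the proteins that tie laminin into the basement membrane. They are 42 of the 21966 genes in the RNA-seq table of primary mouse colon tumor cells, chosen by symbol: 18 integrin α subunits, 9 integrin β subunits, 11 laminin chains, and the nidogens Nid1 and Nid2, perlecan (Hspg2) and agrin (Agrn). Genes whose products only bind integrin tails, such as Itgb1bp1 and Itgb1bp2, and the integrin-like Itgbl1 were not counted as members. A basement membrane is the thin sheet of matrix under an epithelium. Laminins, each a trimer of an α, a β and a γ chain, form its cell-facing network, which nidogens and perlecan link to collagen IV. Epithelial cells hold on to laminin through integrins, obligate pairs of an α and a β subunit, and in the intestine the pairs α6β4 and α3β1 are the main laminin receptors, whereas α5β1 and the αv integrins bind fibronectin, vitronectin and latent TGF-β.

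PID+ cells came from colon tumors of CDX2P-NLS-Cre;APCΔ/+;ROSA26-PID mice, in which Cre, driven by the CDX2 promoter in the intestinal epithelium, removes a part of 1 copy of Apc and switches on PID, a peptide that inhibits the Group I Pak kinases. PID- cells came from CDX2P-NLS-Cre;APCΔ/+ mice without the PID allele, so that both groups carry the Cre and the Apc deletion. Each genotype is represented by 3 lines grown from tumors, labelled mouse 4, 7 and 26 for PID+ and mouse 1, 2 and 3 for PID-. Normal and untreated are the words of the labels for the PID- samples, although the study's methods derive them from tumors, and their mouse numbers are not the ones used for PID- lines in the study. The comparison asks how the level of each gene differs when Pak activity is repressed in Apc-mutant tumor cells.

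Expression is given as FPKM, fragment numbers corrected for the length of the transcript and the size of the library, with the confidence interval that the authors' software put around it as a range. The reads of each condition had been merged before FPKM was calculated, so every gene has a single pooled value in PID+ and a single one in PID- cells. There is therefore no spread between mice, no difference below was tested, and the intervals cover the software's own error model. Both conditions had a usable value for 21959 genes, including all 42 members. The intervals were wide: among the 24 members with at least 1 FPKM in either condition, the median half-width was 94.6% of the FPKM in PID+ and 79.7% in PID- cells, and the lower bound was 0 for 12 of these members in PID+ and 9 in PID- cells. Differences are also given as log2((FPKM in PID+ + 1)/(FPKM in PID- + 1)), a scale that understates the difference of genes with low FPKM.

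Markers of cell types were read beside the members to check the labelled tissue. Of 8 epithelial markers 7 had an FPKM of at least 1, each higher in PID+ cells except for Krt19 once Gapdh was set equal (a scaling given below), and the sum over the list was 9083 in PID+ cells against 4957 in PID- cells. The most abundant were the keratins Krt18 in PID+ (2843) and Krt19 in PID- cells (2073), while Vil1, a brush border gene of the intestine, was under 1 in both. Fibroblast markers differed in the other direction, with a summed FPKM of 3.005 for PID+ against 34.1 for PID- cells. In that list 4 of 8 genes reached an FPKM of 1, of which 1 did so in PID+ and 4 in PID- cells, so that the filter itself favors lower values in PID+ cells here. The list was led by Col1a1 in PID+ (2.32) and Col1a2 in PID- cells (11.9), while Dcn and Thy1 were listed at 0 in PID+ and Lum in both conditions. Among 5 smooth muscle markers Acta2 (4.39 in PID+ and 9.76 in PID- cells) and Tagln (1.02 and 2.93) reached an FPKM of 1, and the list summed to 5.77 and 13.0. Of 11 leukocyte markers only Cd68 did so, with 21.8 in PID+ and 16.8 in PID- cells (lower in PID+ with Gapdh set equal), against list sums of 22.1 and 17.3, and Cd3e was listed at 0 in both. In pooled RNA fewer cells of a type and less RNA per cell cannot be told apart, and the part of these markers in the values of the members was not tested. The study reports a fibroblast-like appearance of its PID- lines and an epithelial one of its PID+ lines. Whether the fibroblast markers go with that appearance was not tested.

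Both conditions expressed the receptors and the laminin chains of an epithelium at high levels. Of the 42 members, 24 had at least 1 FPKM in either condition, 18 had a mean FPKM of at least 5, and 5 had an FPKM of at least 100 in both conditions. The β1 subunit Itgb1 was the most abundant, at rank 148 of all genes in PID+ and 105 in PID- cells. Laminin α3, laminin β3 and the integrin subunit α3 had higher values in PID+ cells under each scaling of the conditions that was tried. Lower under each of them were, among others, integrins β1, β5 and α5, laminins β2 and γ1, and perlecan. Of the 24 expressed members 12 were higher and 12 lower in PID+ cells. Their median log2 difference was 0.053, against -0.0065 over the 11785 genes reaching 1 FPKM. This filter lets in genes through the condition where they are higher: Itga7, Itgb7 and Lama4 reached an FPKM of 1 in PID- and not in PID+, and Itgb2 passed in PID+ and not in PID- cells.

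At least 3-fold higher in PID+ cells was 1 member, the laminin chain Lama3, and at least 3-fold lower was 1 member, the integrin subunit Itgb5. Over all genes the corresponding shares were 1.04% (229 genes) and 1.72% (377 genes), and over genes with an FPKM of at least 1 they were 1.94% and 3.20%, so that the members' counts lay near the background. The deposited intervals were apart for the same genes, Lama3 above and Itgb5 below, whereas over all genes they were apart for 0.187% with higher and 0.542% with lower values in PID+ cells. A 2-fold difference was passed by 3 members with higher values, among them Lama3 and Itga3, and by 5 with lower values (Itgb5, Hspg2, Itga5, Itga7 and Lama4), against 6.16% and 7.03% of genes reaching 1 FPKM. When Gapdh, 1.54 times as abundant in PID+ as in PID- cells, was set equal, no member was at least 3-fold higher and 3 were at least 3-fold lower (Itga5, Itgb5 and Hspg2), as 76 genes in all were higher and 662 lower. That scaling moved the median of all expressed genes to -0.57 and that of the expressed members to -0.56, and 7 members with higher FPKM in PID+ cells (Itga2, Itga6, Itgav, Itgb4, Itgb6, Lama5 and Agrn) then had lower values.

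**Figure D1:**
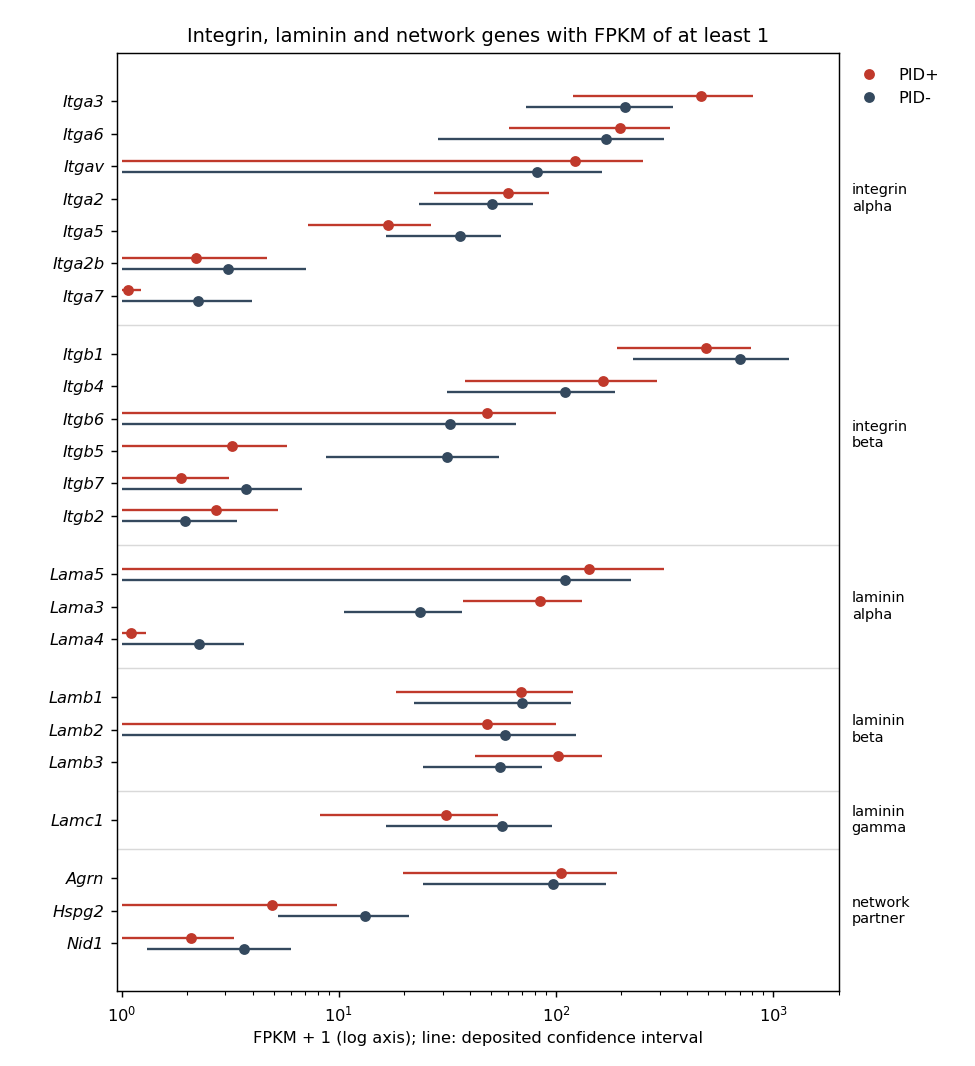
FPKM + 1 on a log axis for 23 of the 24 members with an FPKM of at least 1, with PID+ in red and PID- in dark blue, grouped by role. Points are the pooled values and lines the deposited confidence intervals. The lines of Lama3 and Itgb5 do not overlap between the conditions, and those of the other 21 genes do.

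Among the integrin α subunits, the laminin-binding α3 and α6 were the most abundant in both conditions, in that order. Itga3, the α subunit of the laminin receptor α3β1 (ENSMUSG00000001507.13, chromosome 11 of GRCm38 from 95044474 to 95076801), measured 464 FPKM (119 to 808) in PID+ cells against 208 FPKM (71.9 to 344) in PID- cells. Its log2 difference was 1.15, and 0.53 with Gapdh set equal. The value in PID+ cells was the higher one and the intervals overlapped over most of the PID- range. Itga3 held 54.0% of the summed FPKM of the 18 α subunits in PID+ and 38.0% in PID- cells, a share that a factor common to all genes of a condition does not alter.

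Itga6, which pairs with β4 in the hemidesmosome and with β1 elsewhere, measured 196 FPKM (59.7 to 332) in PID+ cells against 169.6 FPKM (27.7 to 312) in PID- cells. The intervals of Itga6 overlapped over most of their length, and its log2 difference of 0.21 became -0.41 with Gapdh set equal. Of the α subunits Itga6 held 22.8% in PID+ cells against 31.0% in PID- cells, and a larger part for Itga3 leaves less for the other subunits. The FPKM of Itga3 was 2.37 times that of Itga6 in PID+ and 1.23 times in PID- cells. Itga2, the collagen-binding partner of β1, measured 59.0 (26.4 to 91.5) and 49.9 (22.5 to 77.3) FPKM, a log2 difference of 0.24 that became -0.38 with Gapdh set equal.

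The α subunits of receptors for fibronectin and other RGD ligands differed by unequal amounts. Itga5, the fibronectin-binding partner of β1 (ENSMUSG00000000555.6, chromosome 15 from 103344286 to 103366763), measured 15.9 FPKM (6.17 to 25.7) in PID+ cells against 35.0 FPKM (15.4 to 54.7) in PID- cells. Of the 5 α subunits with a mean FPKM of at least 5 it alone was lower in PID+ cells under every scaling tried, with a log2 difference of -1.09, or -1.28 after the median of its chromosome was subtracted and -1.67 with Gapdh set equal. Its rank among all genes was 5583 in PID+ and 2847 in PID- cells. For each unit of Itga5 there were 29.1 units of Itga3 in PID+ and 5.93 in PID- cells, both on the FPKM scale. Itgav, the subunit shared by the αv integrins, measured 122 FPKM (0 to 252) in PID+ cells against 80.4 FPKM (0 to 162) in PID- cells, with a log2 difference of 0.59 that became -0.029 with Gapdh set equal. Its share of the α subunits was 14.2% and 14.7%, which is almost the same in the conditions.

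A pair of further α subunits reached an FPKM of 1 only narrowly. Itga7, a laminin-binding subunit best known from muscle, measured 0.0726 FPKM (0 to 0.220) in PID+ cells against 1.24 FPKM (0 to 2.98) in PID- cells, and its exons overlap those of Mettl7b. On the scale with 1 added its log2 difference was -1.06, and with 0.1 added it was -2.95. Itga2b, the platelet fibrinogen receptor subunit, measured 1.19 (0 to 3.67) and 2.08 (0 to 6.08) FPKM. Of 9 platelet and megakaryocyte markers only the chemokine gene Ppbp exceeded 1 FPKM, at 2321 FPKM in PID+ cells and 231 FPKM in PID- cells of list sums of 2322 and 232, and Gp6 and Treml1 were listed at 0 in both conditions.

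The β subunits were dominated by β1, the common partner of most α subunits, in both conditions, but less so in PID+ cells. Itgb1 (ENSMUSG00000025809.12, chromosome 8 from 128685654 to 128733200) measured 490.4 FPKM (190.5 to 790.3) in PID+ cells against 703 FPKM (226 to 1179) in PID- cells, a log2 difference of -0.52 with overlapping intervals. The difference was -0.39 with the chromosome median subtracted and -1.14 with Gapdh set equal. Itgb1 made up 69.4% of the summed FPKM of the 9 β subunits in PID+ and 80.1% in PID- cells. Itgb4, whose long tail anchors keratin filaments in the hemidesmosome, measured 164 (37.0 to 290.2) and 108 (30.3 to 187) FPKM. Its log2 difference of 0.59 became -0.032 with Gapdh set equal. Within the family its share was 23.1% in PID+ and 12.4% in PID- cells, so that 1 unit of Itgb4 stood against 2.998 units of Itgb1 in PID+ and 6.48 in PID- cells.

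The β partners of αv differed from one another. Itgb5, a vitronectin receptor subunit (ENSMUSG00000022817.11, chromosome 16 from 33829665 to 33949338), measured 2.23 FPKM (0 to 4.74) in PID+ cells against 30.6 FPKM (7.67 to 53.5) in PID- cells. The upper bound in PID+ cells lay below the lower bound in PID- cells, and the FPKM in PID- cells was 13.7 times that in PID+ cells. By the estimated value of a read, about 466 reads stood behind the value in PID+ and about 8877 behind that in PID- cells. The genes of chromosome 16 had a median log2 difference of -0.50, and that of Itgb5 was -3.29 as measured and -2.79 with this median subtracted. Itgb6, the epithelial partner of αv that binds latent TGF-β, measured 47.3 FPKM (0 to 98.6) in PID+ cells against 31.5 FPKM (0 to 64.2) in PID- cells, with a log2 difference of 0.57 that became -0.035 with Gapdh set equal. Itgb5 and Itgb6 were thus at nearly the same level in PID- cells, where the ratio of Itgb6 to Itgb5 was 1.03, and far apart in PID+ cells, where it was 21.3. Itgav outnumbered Itgb5 by 54.6 to 1 in PID+ and 2.63 to 1 in PID- cells, whereas its ratio to Itgb6 was 2.57 and 2.56. Itgb3, another partner of αv, measured 0.640 FPKM in PID+ cells against 0.280 FPKM in PID- cells, and Itgb8 had 0.0137 and 0.179.

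Integrins of leukocytes had low values. Of the 8 genes for leukocyte integrin subunits, 6 (Itga4, Itgad, Itgae, Itgal, Itgam and Itgax) were below an FPKM of 1 in both conditions, and Itgad was listed at 0 in both. Itgb7, the partner of Itga4 and Itgae in gut-homing and intraepithelial lymphocytes, measured 0.881 FPKM (0 to 2.102) in PID+ cells against 2.72 FPKM (0 to 5.75) in PID- cells. Itgb2, the common β subunit of leukocytes, had 1.72 (0 to 4.25) and 0.951 (0 to 2.39). The α partners of Itgb7 and Itgb2 were thus below 1 FPKM in both conditions. The other integrin members below an FPKM of 1 in both conditions were Itga1, Itga8, Itga9, Itga10, Itga11 and Itgb2l, besides Itgb3 and Itgb8. In all, 18 members were below this level, with a highest value of 0.934 in PID+ and 0.811 in PID- cells, both for Itga10.

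**Figure D2:**
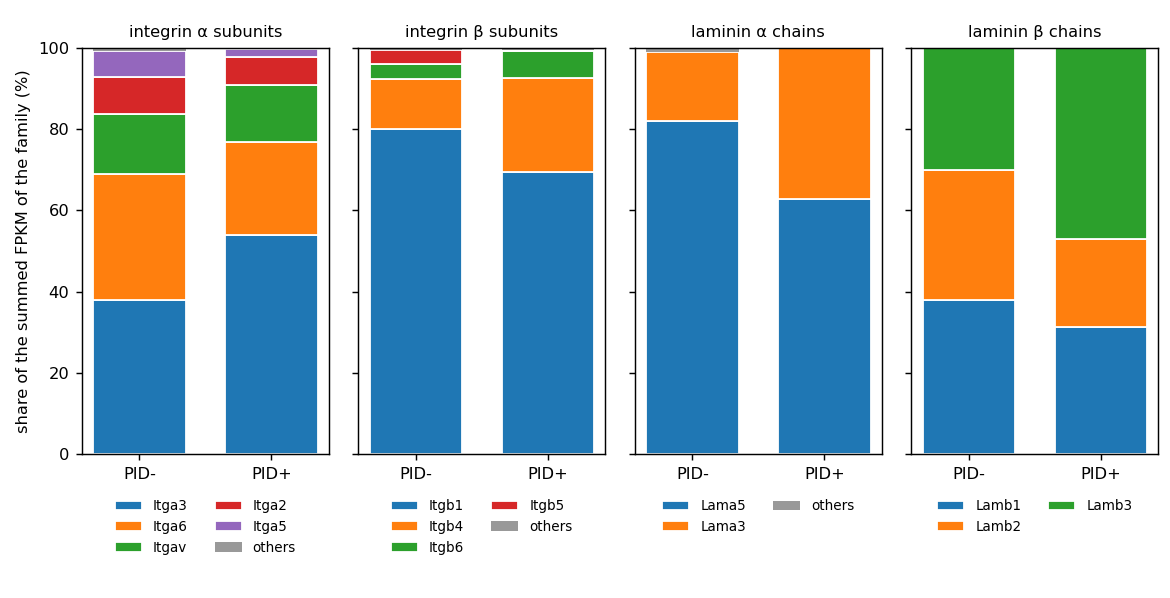
Share of each gene in the summed FPKM of its family, in percent, for integrin α and β subunits and laminin α and β chains, with PID- in the left bar and PID+ in the right bar of each panel. Genes under 3% in both conditions are joined as others. Lama3 makes up 37.2% of the laminin α chains in PID+ and 17.0% in PID- cells, and Itgb5 0.315% and 3.49% of the integrin β subunits.

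The α3 and β3 chains of the epithelial laminin that α3β1 and α6β4 bind had higher values in PID+ cells under each scaling tried. Lama3, the α chain (ENSMUSG00000024421.13, chromosome 18), measured 83.3 FPKM (36.3 to 130.3) in PID+ cells against 22.7 FPKM (9.61 to 35.8) in PID- cells. The intervals of Lama3 missed each other narrowly, and the FPKM in PID+ cells was 3.67 times that in PID- cells. About 58316 estimated reads in PID+ and 22011 in PID- cells stood behind these values. The log2 difference of Lama3 was 1.83, and 1.22 with Gapdh set equal, which is less than 3-fold.

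Lamb3, the β chain of the same laminin (ENSMUSG00000026639.15, chromosome 1 from 193207699 to 193343878), measured 101 FPKM (41.2 to 162) in PID+ cells against 54.4 FPKM (23.5 to 85.3) in PID- cells. The intervals overlapped between the conditions, and the log2 difference of 0.89 was 0.27 with Gapdh set equal. Lama3 and Lamb3 were closer to equal amounts in PID+ cells, with 1.22 units of Lamb3 to 1 unit of Lama3, than in PID- cells, with 2.40. Lama3 was thus the less abundant of these mRNAs in both conditions.

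The chains of the more widespread laminins did not share this difference. Lama5, the main α chain under the adult intestinal epithelium (ENSMUSG00000015647.9, chromosome 2 from 180176373 to 180225859), measured 140.4 FPKM (0 to 314) in PID+ cells against 109.5 FPKM (0 to 221) in PID- cells, and its log2 difference of 0.36 became -0.26 with Gapdh set equal. Lamb1, the common β chain, had 68.1 (17.3 to 119) and 68.5 (21.1 to 116). Its log2 difference of -0.0095 was -0.62 with Gapdh set equal and 0.10 with the chromosome median subtracted, so that its direction depended on the scaling. Lamb2, the β chain of nerve, muscle and kidney basement membranes, had 46.8 (0 to 99.2) and 57.5 (0 to 123). Lamc1, the γ chain of most laminins (ENSMUSG00000026478.11, chromosome 1 from 153218922 to 153332786), had 30.2 (7.204 to 53.1) in PID+ and 55.3 (15.5 to 95.1) in PID- cells, a log2 difference of -0.85 with overlapping intervals.

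The makeup of the laminin α and β chains therefore differed between the conditions. Among the β chains Lamb3 came last in PID- cells with 30.1% of the summed FPKM and first in PID+ cells with 46.9%. Among the α chains Lama5 came first in both, with 62.7% in PID+ and 82.0% in PID- cells, and Lama3 second with 37.2% and 17.0%. The remaining chains were scarce. Lama4, an α chain of vessels and mesenchyme, measured 0.0969 FPKM (0 to 0.286) in PID+ cells against 1.26 FPKM (0 to 2.67) in PID- cells, and its log2 difference was -1.04 with 1 added and -2.79 with 0.1 added. Of 7 endothelial markers only Kdr reached an FPKM of 1, with 3.33 in PID+ and 1.01 in PID- cells, of list sums of 4.19 and 1.46. Lama1, Lama2 and Lamc3 were below an FPKM of 1 in both conditions, and Lamc3, with 0.375 in PID+ and 0.0448 in PID- cells, passed 3-fold when 0.1 was added in place of 1.

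The proteins that link laminin to the rest of the basement membrane split between agrin and the others. Agrn, a heparan sulfate proteoglycan that binds laminin γ1 (ENSMUSG00000041936.15, chromosome 4 from 156165290 to 156197488), measured 104 FPKM (18.7 to 189.96) in PID+ cells against 96.2 FPKM (23.4 to 169) in PID- cells, with a log2 difference of 0.12 that became -0.50 with Gapdh set equal. Hspg2, perlecan, which bridges laminin, nidogen and collagen IV (ENSMUSG00000028763.14, chromosome 4 from 137468769 to 137570630), had 3.93 (0 to 8.82) and 12.2 (4.24 to 20.1). Its log2 difference was -1.42, and -1.11 after subtraction of the median of chromosome 4, which was -0.31. With Gapdh set equal, or with 0.1 added in place of 1, Hspg2 was more than 3-fold lower in PID+ cells. The ratio of Agrn to Hspg2 was 26.5 in PID+ and 7.90 in PID- cells. Nid1, the nidogen that joins laminin γ1 to collagen IV, measured 1.08 FPKM (0 to 2.29) in PID+ cells against 2.66 FPKM (0.303 to 5.01) in PID- cells, a log2 difference of -0.82, and Nid2 was near 0 in both with 0.0218 and 0.0519. Fibroblast markers, given above, had lower values in PID+ cells as did Hspg2, Nid1, Lama4 and Itga5, and their part in these differences was not tested.

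**Figure D3:**
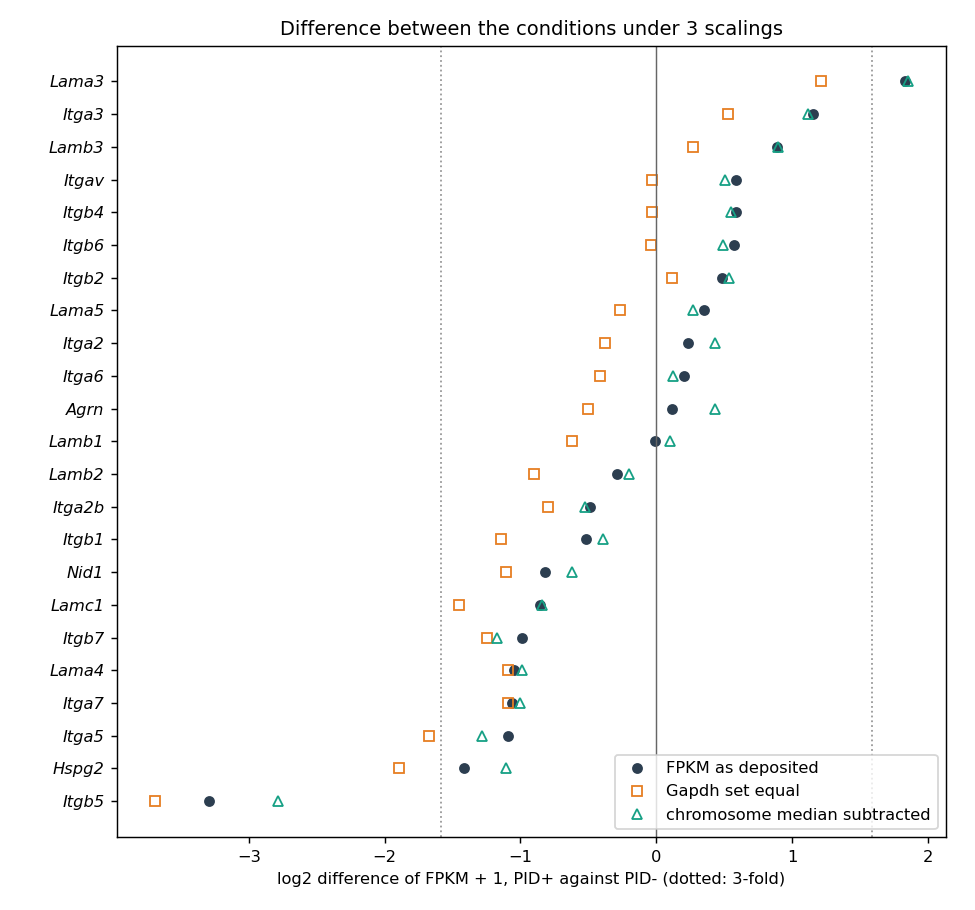
Log2 difference of FPKM + 1 in PID+ against PID- cells for 23 of the 24 members with an FPKM of at least 1, as deposited (filled circles), with Gapdh set equal (open squares) and with the median of the gene's chromosome subtracted (open triangles). Dotted lines mark 3-fold. Lama3 lies at 1.83, 1.22 and 1.85 and Itgb5 at -3.29, -3.69 and -2.79 under these scalings, while the 7 genes from Itgav to Agrn other than Itgb2 cross 0 when Gapdh is set equal, and Lamb1 when the chromosome median is subtracted.

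The promoters of a few members that differed in opposite directions are shown to let their sequences be compared. RefSeq promoter windows of GRCm38.p6, from 250 bases before to 50 after a transcription start, were matched for 27 of the 42 members (31 windows), 16 of them among the 24 expressed members. Each window was searched on both strands for CACCTG, the E-box that Snai and Zeb repressors bind, and for TGANTCA, the core bound by AP-1, and no matches overlap in the windows shown. CACCTG was found in 8 of the 31 windows (25.8%), against 20.2% of 32851 windows of all genes, and TGANTCA in 3, against 7.81%. Among the members with higher values in PID+ cells, a Lamb3 window holds CACCTG at -6 and 4, counted from the start as 0, and the upstream Itga3 window holds it on the other strand at -195. The second Itga3 window holds TGANTCA at 12. Itgb5, with a lower value in PID+ cells, holds CACCTG at -109, so the motif occurs on both sides of the comparison. All windows shown hold a match. The other Lamb3 window and those of Itga5, Hspg2 and Itgb1, which had lower values in PID+ cells, hold neither motif and are not shown. Also not shown are the Lama5 window and an Itgb6 window, which hold CACCTG. The windows of Itga2, Itgav and Agrn hold neither motif. These 5 genes were higher in PID+ cells as deposited and lower with Gapdh set equal. No binding was measured, and a match is a run of letters only. Capitals mark the matches.
Lamb3, chr1:193301993-193302292, plus strand: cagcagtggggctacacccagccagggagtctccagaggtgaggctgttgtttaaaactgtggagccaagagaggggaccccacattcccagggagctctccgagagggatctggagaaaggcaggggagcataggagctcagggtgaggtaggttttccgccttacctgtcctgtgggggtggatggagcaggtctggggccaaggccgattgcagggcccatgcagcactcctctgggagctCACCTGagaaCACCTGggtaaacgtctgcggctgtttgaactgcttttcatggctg
Itga3, chr11:95076665-95076964, minus strand: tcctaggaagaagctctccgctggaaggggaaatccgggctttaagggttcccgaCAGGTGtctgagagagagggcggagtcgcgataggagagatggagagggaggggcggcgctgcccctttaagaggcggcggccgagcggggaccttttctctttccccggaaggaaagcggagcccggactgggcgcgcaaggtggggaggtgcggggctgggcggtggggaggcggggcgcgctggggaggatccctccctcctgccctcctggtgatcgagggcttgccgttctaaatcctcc
Itga3, chr11:95069149-95069448, minus strand: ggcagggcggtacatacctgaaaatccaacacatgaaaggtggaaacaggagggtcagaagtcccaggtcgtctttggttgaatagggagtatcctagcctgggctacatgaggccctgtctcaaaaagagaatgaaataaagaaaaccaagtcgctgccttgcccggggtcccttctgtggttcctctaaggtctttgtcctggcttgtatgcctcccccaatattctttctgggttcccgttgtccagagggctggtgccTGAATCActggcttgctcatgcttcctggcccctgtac
Itgb5, chr16:33829415-33829714, plus strand: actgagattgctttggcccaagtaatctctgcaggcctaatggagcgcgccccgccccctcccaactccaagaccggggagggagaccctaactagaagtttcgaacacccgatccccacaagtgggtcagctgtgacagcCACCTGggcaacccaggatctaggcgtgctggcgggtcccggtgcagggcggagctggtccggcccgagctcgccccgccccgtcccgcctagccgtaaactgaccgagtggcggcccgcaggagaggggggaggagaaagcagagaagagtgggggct

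The collagens of the basement membrane, to which nidogen and perlecan attach laminin, had mostly lower values in PID+ cells where they were expressed. Of 10 listed genes 6 had an FPKM of at least 1, with 1 higher and 5 lower (5959 of all 11785 such genes were lower), or 2 and 4 with chromosome medians subtracted, where Col15a1 changed sides. Their median log2 difference was -0.97, against -0.0065 over all such genes, and -1.43 with Gapdh set equal. None passed 3-fold, except for lower values of Col4a2 at equal total FPKM, Col4a1 and Col4a2 at equal Gapdh and Col4a5 with 0.1 added in place of 1, and all intervals overlapped. Fibroblast markers were lower as well, and their part in these values was not tested. Col18a1 was the most abundant, at 93.8 FPKM in PID+ cells and 151 FPKM in PID- cells. The collagen IV chains Col4a1 and Col4a2, which form the sheet under most epithelia, had 13.1 and 17.4 in PID+ and 33.9 and 52.3 in PID- cells. The exception was Col7a1, the anchoring fibril collagen that attaches to laminin with the α3 and β3 chains, with 41.6 (0 to 98.6) in PID+ and 19.9 (0 to 49.7) in PID- cells.

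Other receptors for laminin and parts of the hemidesmosome mostly differed little. All 8 listed genes had an FPKM of at least 1, 6 higher and 2 lower in PID+ cells with a median log2 difference of 0.17, which became 1 higher and 7 lower with a median of -0.45 when Gapdh was set equal, where that of all expressed genes was -0.57, and 5 and 3 at equal total FPKM or with chromosome medians subtracted. None passed 3-fold. The most abundant was Rpsa, a ribosomal protein also described as a laminin receptor, at 807 FPKM in PID+ cells and 781 FPKM in PID- cells. Bcam, a receptor for the laminin α5 chain, differed most and stayed higher in PID+ cells under each scaling, with 45.5 (13.5 to 77.5) in PID+ and 17.8 (3.21 to 32.5) in PID- cells.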

How the data were processed

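RNA-seq was read from a deposited table with 43932 entries for 21966 genes in 2 conditions. Following the treatments in the labels, treated was taken as PID+ and untreated as PID-. The sign of every difference rests on this assignment, which could not be checked against the transgene because the transgene has no entry. The study reports more E-cadherin mRNA in PID+ cells, and its gene Cdh1 had 192 FPKM in PID+ and 88.0 in PID- cells. The study also reports more fibronectin protein in PID- cells, whereas Fn1 mRNA had 1597 FPKM (0 to 3944) in PID+ and 1118 (0 to 2507) in PID- cells. These intervals overlap, and with Gapdh set equal Fn1 was lower in PID+ cells. According to the methods and the submitters' processing notes, the authors trimmed adapters with cutadapt, checked reads with FastQC, aligned them with TopHat and Bowtie2 to GRCm38.p3 with a protein coding gene annotation, joined the reads of 3 samples per condition in 1 alignment, and calculated FPKM with CuffDiff (compatible hits normalization). The methods call those reads repeated sequencing runs, while the labels name 3 mice. The deposited FPKM and the bounds of its confidence interval were used, and 7 genes without an OK status were left out. Depth is unknown. Estimated reads come from the steps between low FPKM values of 4405 genes with 1 transcript, after 180 bases (the best of 31 numbers tried) were taken from its length. Within 0.1 of a whole number lay 90.5% of 855 values in PID+ and 90.5% of 791 in PID- cells, so that 1 read corresponds to 1.39 times more FPKM in PID+ than in PID- cells. Reads of genes with several transcripts are approximate. Log2 differences used a pseudocount of 1.

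With pooled values no test over samples was possible. Symbols were found for 21734 identifiers, and positions, chromosomes and overlapping genes come from Gencode M21 (GRCm38), and promoter windows, without those of chromosome 18, from RefSeq. A mean FPKM of 5 was reached by 9341 genes, and chromosome medians used those among them that were assigned to a chromosome. The members and lists were chosen with earlier results of these data known. Members reaching 1 FPKM in either condition are described with their values, and lower ones only briefly; 1 member and 1 marker list are not reported here, though the counts include that member. Described in full are those past 3-fold or with intervals apart, the most abundant of each role and their partner chains. In related lists these are the most abundant gene and those past 3-fold. Col4a1, Col4a2, Col7a1 and Bcam were picked after their values were seen. Alternatives were a pseudocount of 0.1, a 2-fold threshold, intervals apart, a mean FPKM of at least 5, subtracted chromosome medians, and scaling to equal total FPKM, upper quartile, Gapdh or median. The 3-fold call was tried on simulated data with noise far below the width of the deposited intervals, and the value of a read on simulated counts. The other calculations were not tested in this way. Python 3.11.15, numpy 2.4.6, pandas 2.3.3 and matplotlib 3.10.9 were used.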

Additional observations from a re-analysis of the deposited data

How the results depend on the processing

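In PID+ cells 1 of the 42 members had a value at least 3-fold higher and 1 a value at least 3-fold lower, and both counts were the same with equal total FPKM, equal upper quartiles, the median of genes whose mean FPKM reached 5 set to 0, chromosome medians subtracted, only members whose mean reached 5 FPKM, and intervals apart as the criterion. With a pseudocount of 0.1 there were 2 higher and 4 lower members, where 621 of all 21959 genes were higher and 795 lower. With a 2-fold threshold there were 3 and 5 members, and with Gapdh set equal 0 and 3, where 76 and 662 of all genes passed 3-fold. The median log2 difference of the expressed members, 0.053 as reported, was -0.049 with equal total FPKM, -0.56 with Gapdh set equal and 0.22 with only members of a mean FPKM of at least 5, where that of all genes was -0.0012. A lower pseudocount raises the fold of genes with low values, a lower threshold admits more genes, and equal Gapdh lowers every gene in PID+ cells by the same factor. Which scaling is right was not tested. Of 144 log2 differences of single members under other settings, 136 kept their direction and 138 their side of 3-fold. Several of these settings could alter little. A pseudocount cannot change a direction, and the factor between conditions was 0.9996 for upper quartiles and 1.07 for total FPKM. With Gapdh set equal, 17 of 24 differences kept their direction and 21 their side of 3-fold. The 8 that changed direction were 7 with Gapdh set equal and 1, Lamb1, with chromosome medians subtracted. The 6 that changed side were Itga7, Lama4 and Hspg2 with a pseudocount of 0.1 and Lama3, Itga5 and Hspg2 with Gapdh set equal. With 1 pooled value per condition no sample could be left out, and of the 18 members under an FPKM of 1 only 4 in PID+ and 3 in PID- cells rested on 3 or fewer estimated reads. No paired analysis was possible because the table holds no value per sample.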

Other observations

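A few ligands of the integrins outside the laminins passed 3-fold, as did 1.94% (higher) and 3.20% (lower) of all genes reaching 1 FPKM. Of 15 listed genes 10 had an FPKM of at least 1, with 5 higher and 5 lower in PID+ cells and a median log2 difference of -0.17, or 2 and 8 with a median of -0.79 when Gapdh was set equal, where the median of all expressed genes was -0.57, and fibronectin (Fn1) was the most abundant in both conditions. Spp1, osteopontin, a ligand of αv integrins, was at least 3-fold lower with intervals apart (63.8, from 25.4 to 102, in PID+ and 782, from 338 to 1226, in PID- cells), and Tnc (2.54 and 10.9) and Ccn3 (0.0599 and 2.69) were at least 3-fold lower with overlapping intervals, Tnc no longer so when chromosome medians were subtracted, and Ccn3 reached 1 FPKM in PID- cells only. Ccn1, a matricellular ligand of αv and α6 integrins, was at least 3-fold higher, with 165 (75.7 to 255) in PID+ and 51.2 (21.3 to 81.1) in PID- cells, but less than 3-fold at equal total FPKM, at equal Gapdh and with chromosome medians subtracted. In the latent TGF-β complex, which αv integrins bind and activate, 5 of 7 genes had lower values, as did 5959 of all 11785 expressed genes, and the median was -0.55. With Gapdh set equal 6 were lower with a median of -1.09, where that of all expressed genes was -0.57. Ltbp1, Tgfb1 and Tgfb2 were then at least 3-fold lower, as were 662 genes in all. As measured only Tgfb2 passed 3-fold, with intervals apart and values of 0.492 (0 to 1.18) in PID+ and 19.9 (5.09 to 34.7) in PID- cells. Ltbp3 was the most abundant with 43.4 and 52.0.

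Of 26 genes for cytoplasmic partners of integrins, 25 had an FPKM of at least 1, with 12 higher and 13 lower in PID+ cells and a median log2 difference of -0.084. With Gapdh set equal, a scaling that lowers all genes alike, 2 were higher and 23 lower. Their median was then -0.68, where that of all expressed genes was -0.57, and 3 were at least 3-fold lower, as were 662 of all 21959 genes. Actn1 was the most abundant in PID+ (624) and Flna in PID- cells (378). Members of the tensin family differed in opposite directions. Tns4, which lacks the actin-binding part of the other tensins, was at least 3-fold higher, with 71.2 (31.1 to 111) in PID+ and 22.9 (8.99 to 36.8) in PID- cells, but less than 3-fold under the same 3 scalings as Ccn1. Tns1 was at least 3-fold lower, with 0.378 (0 to 1.72) and 6.71 (0 to 17.9). Among 15 genes for proteases and assembly of the basement membrane, 9 had an FPKM of at least 1, with 4 higher and 5 lower and a median of -0.32, or 1 and 8 with a median of -0.91 when Gapdh was set equal, again with -0.57 over all expressed genes. Mmp7, an epithelial matrix protease, was the most abundant and at least 3-fold lower with intervals apart, with 234 (105 to 363) in PID+ and 993 (435 to 1551) in PID- cells. Sparc, which binds collagen IV, was at least 3-fold lower with overlapping intervals (10.5 and 37.3).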
